A study of Mus musculus with 8 samples.

Results

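A total of 105 H2AK119ub domains of control epidermal progenitors each overlapped 2 or more separate peaks of the Eed cKO list, and 95 Eed cKO domains each overlapped 2 or more separate control peaks, by at least 1 bp. The former are called split and the latter fused. They were chosen by the peak positions of both lists, and the names describe how the pair of peak lists lies on each other and not an event that was observed. The split domains were 2.27% of 4621 control peaks, and 6.00% of the 1751 control peaks (37.9% of the list) that touched any Eed cKO peak. The fused domains were 3.74% of 2541 Eed cKO peaks, and 5.33% of the 1781 (70.1% of the list) that touched any control peak. Together they make 200 of 7162 deposited peaks. Because the rule reads both lists, widths, counts, gaps and covered shares of the members are descriptions and none of them was tested.

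H2AK119ub was mapped by ChIP-seq, the sequencing of DNA pulled down with an antibody to the mark, in back-skin epidermal cells of newborn mice at postnatal day 0, gated on EpCAM, on Sca1 and on a high level of α6-integrin. The groups used here are labelled Control and Eed cKO, the latter with the genotype Eed-/-. For the allele, the Cre driver and the genotype of the control animals, the sources used here give nothing. Each group had 2 H2AK119ub libraries but 1 deposited list, so no spread between animals could be had, and intervals below (95%, Wilson for shares, order statistics for medians) cover counting error alone. The lists hold positions with no height, read depth behind a peak is unknown, and a gap means that no peak was called there. Inputs and the Ring1a/b 2KO library were not analysed here. Of 7 basal keratinocyte marker genes, 1 was marked in each list and 0 lay at a split or fused domain. Positions of the mark do not measure expression, so the sorted cell type could not be checked by its markers.

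Polycomb repressive complex 1 (PRC1), through Ring1a or Ring1b, attaches a ubiquitin to a lysine in the tail of histone H2A, which gives H2AK119ub. Polycomb repressive complex 2 (PRC2), in which Eed is a core subunit, methylates lysine 27 of histone H3, and some forms of PRC1 bind that methyl mark through a Cbx subunit while others reach CpG-rich DNA without it. In skin and in many other tissues the broadest Polycomb domains lie over genes of developmental transcription factors that are silent in that lineage.

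The promoters below show DNA at the places where the lists differ inside these domains. They are RefSeq windows of build GRCm38.p6 (mm10), from 250 bases before to 50 bases after an annotated start, on the strand of the gene, with CG dinucleotides in capitals. CG reads the same on both strands. One CG or more was present in 95.4% of 21263 such windows across the genome, with a median of 13 per window. Lhx2, a LIM homeobox factor of hair follicle stem cells and forebrain, has a start in the 1265 bp gap between the leftmost pair of the Eed cKO pieces of its split domain (chr2:38339031-38339330, + strand, 34 CG). Sox1, a neural progenitor factor, has its start in the 1780 bp gap of its domain (chr8:12395269-12395568, + strand, 37 CG). Wnt11, a secreted Wnt ligand, has a start in a 938 bp gap (chr7:98834862-98835161, + strand, 45 CG) and another in the retained piece to its right (chr7:98838595-98838894, + strand, 23 CG). Sox2, a pluripotency and Merkel cell factor, has its start inside a retained piece (chr3:34649745-34650044, + strand, 27 CG). Unc5b, a netrin receptor, has its start in a 1781 bp control gap that a fused Eed cKO peak spans (chr10:60831532-60831831, - strand, 36 CG).
Lhx2, start in a gap: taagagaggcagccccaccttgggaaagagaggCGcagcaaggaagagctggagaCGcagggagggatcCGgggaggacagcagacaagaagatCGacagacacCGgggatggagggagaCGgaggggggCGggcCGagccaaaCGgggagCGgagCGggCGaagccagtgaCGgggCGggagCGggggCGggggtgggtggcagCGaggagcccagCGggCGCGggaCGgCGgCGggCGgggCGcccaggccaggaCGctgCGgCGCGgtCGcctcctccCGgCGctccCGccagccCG
Sox1, start in a gap: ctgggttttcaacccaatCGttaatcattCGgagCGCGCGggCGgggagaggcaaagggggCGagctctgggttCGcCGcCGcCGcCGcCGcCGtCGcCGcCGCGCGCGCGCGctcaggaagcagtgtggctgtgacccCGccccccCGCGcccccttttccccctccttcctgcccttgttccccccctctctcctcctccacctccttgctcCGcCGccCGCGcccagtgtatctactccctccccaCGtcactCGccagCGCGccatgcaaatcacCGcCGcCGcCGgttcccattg
Wnt11, start in a gap: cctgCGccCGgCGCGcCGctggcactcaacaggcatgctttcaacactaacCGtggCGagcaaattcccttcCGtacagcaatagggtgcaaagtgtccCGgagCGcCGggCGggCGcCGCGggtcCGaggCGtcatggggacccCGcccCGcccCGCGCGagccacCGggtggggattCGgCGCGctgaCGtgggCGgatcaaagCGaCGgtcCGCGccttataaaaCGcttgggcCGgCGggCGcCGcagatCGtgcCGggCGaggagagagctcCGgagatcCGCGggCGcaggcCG
Wnt11, start in a retained piece: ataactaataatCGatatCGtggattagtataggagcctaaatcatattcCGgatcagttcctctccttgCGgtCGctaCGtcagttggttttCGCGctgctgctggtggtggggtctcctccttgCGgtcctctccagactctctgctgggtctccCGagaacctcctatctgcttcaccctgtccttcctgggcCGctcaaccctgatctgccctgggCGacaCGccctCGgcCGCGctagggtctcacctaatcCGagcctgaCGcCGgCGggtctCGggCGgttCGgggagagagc
Sox2, start in a retained piece: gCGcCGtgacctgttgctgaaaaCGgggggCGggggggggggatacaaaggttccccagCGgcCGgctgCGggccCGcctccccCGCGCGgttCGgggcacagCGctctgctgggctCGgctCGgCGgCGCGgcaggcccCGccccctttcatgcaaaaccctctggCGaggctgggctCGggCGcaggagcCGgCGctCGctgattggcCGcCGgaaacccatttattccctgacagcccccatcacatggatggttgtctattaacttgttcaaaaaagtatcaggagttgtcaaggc
Unc5b, start in a gap filled in Eed cKO: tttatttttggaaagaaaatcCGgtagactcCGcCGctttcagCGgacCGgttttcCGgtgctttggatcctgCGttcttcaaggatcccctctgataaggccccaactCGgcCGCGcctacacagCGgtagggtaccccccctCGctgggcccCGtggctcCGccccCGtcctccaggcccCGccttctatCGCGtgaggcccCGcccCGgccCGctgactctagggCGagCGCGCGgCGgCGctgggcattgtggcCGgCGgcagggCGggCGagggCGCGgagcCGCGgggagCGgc
All 6 windows hold more CG than the genome median of 13, whether the start lies in a gap or under a peak of both lists. They are examples and do not stand for the members. The median was 20 over windows with a start in a control peak and 21 in an Eed cKO peak. Other windows, not shown, fell below 13. In gaps these included Hoxd4 (4), Hoxd8 (6) and Hoxa9 (4), in retained pieces Hoxd11 (4) and Pax2 (7), and in a filled gap Gdnf (11). A comparison of CG content over all members is void, because 88 of 130 genes at split domains (67.7%) and 69 of 101 at fused domains (68.3%) had a window in the promoter table.

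Split domains also held microRNA genes, which are short regulatory RNAs that pair with messages through a seed at bases 2 to 8. Of 1005 annotated hairpins, 11 lay in 9 split domains and 0 in fused domains. Split domains cover 2.96 Mb and fused domains 1.38 Mb, and Mir3093, Mir9-1 and Gm25641 lay in the same split domain. The share of hairpins over all peaks of each list is not given here, so the 0 is not read as a trait of fused domains. The mature sequences of the Hox-cluster and miR-9 members are shown 5′ to 3′ from RefSeq with the seed in capitals.
miR-196a-5p: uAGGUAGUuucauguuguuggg
miR-196b-5p: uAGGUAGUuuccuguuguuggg
miR-10b-5p: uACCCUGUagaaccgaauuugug
miR-9-5p: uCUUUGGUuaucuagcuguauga
miR-196a-5p and miR-196b-5p share the seed AGGUAGU, and their 3 genes lay in split domains of different Hox clusters. Mir196b lay in a gap of the Hoxa domain, Mir196a-2 in a retained piece of the Hoxc domain, and Mir196a-1 across the right edge of a retained piece of the Hoxb9 domain. Mir10b lay in a retained piece of the Hoxd domain. Both Mir9-1 and Mir9-3 lay in retained pieces of split domains with no protein-coding gene end, at chr3:88189325-88222155 and chr7:79494039-79557837.

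Split domains were broad and fused domains were of middle width. The median width was 24.6 kb for split domains (interval 19963 to 29014 bp, range 2.61 to 137 kb), beside 4.33 kb over all control peaks and 5.66 kb over the 1646 control peaks with exactly 1 Eed cKO partner. Fused domains had a median of 12.1 kb (interval 10886 to 13555 bp, range 4.26 to 66.0 kb), beside 5.17 kb over all Eed cKO peaks and 5.94 kb over the 1686 with exactly 1 control partner. A wide peak has more room to touch several others, so some excess in width comes with the rule. Of the 13 control peaks of 50 kb or more, 10 were split. Of the 207 control peaks of 20 kb or more, 63 were split (30.4%, interval 24.6 to 37.0%), and of the 62 Eed cKO peaks of that width 16 were fused (25.8%, interval 16.6 to 37.9%). In narrower classes the fused share was the higher one, with 32 of 890 Eed cKO peaks of 5 to 10 kb (3.60%) beside 14 of 1337 control peaks (1.05%), and 44 of 351 (12.5%) beside 25 of 439 (5.69%) at 10 to 20 kb. At 20 to 40 kb the shares were 14 of 56 fused (25.0%) and 44 of 175 split (25.1%). At 40 kb and over, 19 of 32 control peaks were split (59.4%) and 2 of 6 Eed cKO peaks were fused.

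Most members met 2 partners. Among split domains 88 held 2 Eed cKO pieces, 11 held 3, 5 held 4 and 1, the Hoxd domain, held 5. Among fused domains 91 spanned 2 control peaks and 4 spanned 3, at Zfhx3, at Neurod2, at Foxo6 and in a region 172186 bp from Thap1. The pieces of split domains had a median width of 7.22 kb and the control pieces of fused domains of 5.32 kb. The widest piece made up a median of 62.5% of the summed piece width in split domains and 63.0% in fused domains.

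Split domains had less of their extent under the other list than fused domains. Eed cKO peaks lay under a median of 68.9% of a split domain (interval 58.9 to 72.6%, range 16.0 to 98.2%). Control peaks lay under a median of 76.8% of a fused domain (interval 71.7 to 81.2%, range 26.0 to 97.0%). Peaks with exactly 1 partner had medians of 92.9% in control and 92.8% in Eed cKO. Summed over the 2.96 Mb of split domains, 58.2% lay under Eed cKO peaks, 16.0% in gaps between them and 25.8% in flanks outside the outermost piece. Summed over the 1.38 Mb of fused domains, 75.1% lay under control peaks, 13.6% in gaps and 11.3% in flanks. The uncovered sequence of split domains was therefore more often at their edges than between their pieces, and in 55 of 105 the flanks held more sequence than the gaps. In fused domains this was so in 36 of 95. Under 50% of the domain was covered in 29 split and in 10 fused domains. Partner peaks reached past 1 or both edges of 42 split domains (40.0%) and of 75 fused domains (78.9%).

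**Figure D1:**
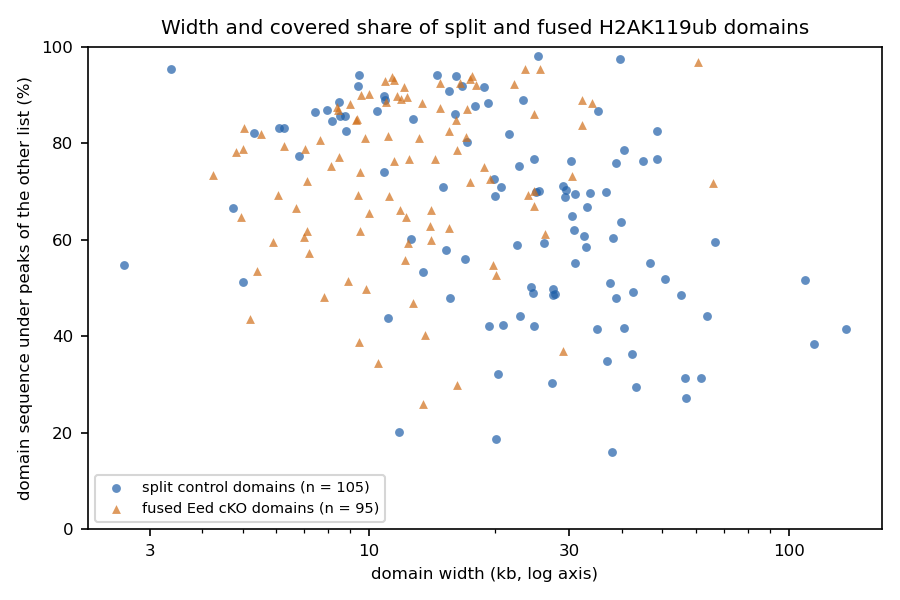
Each point is 1 domain, with its width in kb on a log axis and the share of its sequence under peaks of the other list in percent. Split control domains (blue circles, n = 105) reach 137 kb and a covered share of 16.0%, and fused Eed cKO domains (orange triangles, n = 95) reach 66.0 kb and 26.0%.

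The gap that makes a domain split or fused was usually narrow. The 129 gaps inside split domains had a median of 1265 bp (interval 1126 to 1584 bp, range 152 to 41516 bp), and 73 of them (56.6%) were under 1500 bp. The 99 gaps inside fused domains had a median of 1183 bp (interval 1134 to 1333 bp, range 241 to 17698 bp), and 69 (69.7%) were under 1500 bp. Distances between neighbouring peaks show the same narrow class in both whole lists, with 208 control pairs and 85 Eed cKO pairs between 1000 and 1500 bp. Below 1000 bp there were 92 of 4601 control pairs and 56 of 2521 Eed cKO pairs. The sources used here do not name the peak caller or its joining distance, and the part of joining in these gaps was not tested.

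Wide gaps were more frequent in the split class. A gap of 3000 bp or more was present in 33 of 105 split domains (31.4%, interval 23.3 to 40.8%) and in 13 of 95 fused domains (13.7%, interval 8.17 to 22.0%). A gap of 10 kb or more was present in 9 split domains and in 2 fused domains. Split domains were also the wider class, with a median of 24.6 kb beside 12.1 kb, and a wide domain has more room for a wide gap. The part of domain width in these counts was not tested. Counted from the neighbouring pairs, a control peak bridged 73 of 141 Eed cKO pairs less than 1500 bp apart (51.8%, interval 43.6 to 59.9%). An Eed cKO peak bridged 69 of 300 control pairs that close (23.0%, interval 18.6 to 28.1%). From 1500 to 5000 bp, 24.4% of the Eed cKO pairs (interval 17.5 to 32.8%) and 7.91% of the control pairs (interval 5.42 to 11.4%) were bridged. At 10 kb and over they were 11 of 2167 and 2 of 3705. The control list is longer than the Eed cKO list, and the part of list length in these shares was not tested.

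**Figure D2:**
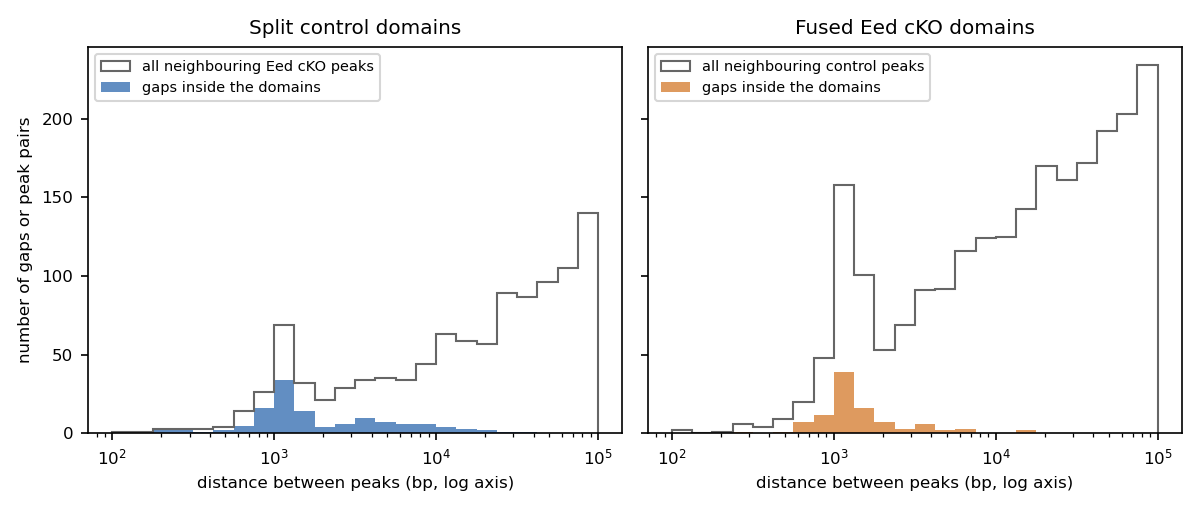
The filled bars count gaps inside split control domains (left, blue) and inside fused Eed cKO domains (right, orange) by width in bp on a log axis, and the grey outline counts all neighbouring pairs of the list that supplies the pieces, with pairs beyond the right edge of the axis not drawn. Both classes pile up just above 1000 bp, where the whole lists also have a peak, and the split class has the longer tail, with 11 gaps of 10 kb or more beside 2.

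The 3 widest split domains lay over Hox clusters. Hox genes encode homeobox factors that specify position along the body axis. The Hoxd domain (chr2:74639331-74776113, 137 kb) runs from Evx2 to Hoxd1 and was covered over 41.6% by 5 Eed cKO pieces of 22.7, 8.81, 7.05, 16.1 and 2.31 kb. Its widest gap, 41516 bp, is the widest of all 129 and holds both ends of Hoxd8, Hoxd9 and Hoxd10. Evx2 and Hoxd12 had starts in retained pieces, and Hoxd13, Hoxd9, Hoxd8 and Hoxd4 were among those with starts in gaps. The Hoxc domain (chr15:102877265-102992381, 115 kb) was covered over 38.4% by 4 pieces, and 53188 bp at its left edge, including both ends of Hoxc13, a hair shaft and nail factor, held no Eed cKO peak. The Hoxa domain (chr6:52222018-52331367, 109 kb) runs from Hoxa9 to Evx1, was covered over 51.7% and had gaps of 15319, 5223 and 27124 bp. Hoxa10 and Hoxa13 had both ends in gaps, while Evx1 had its start in a retained piece.

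The Hoxb cluster carried a pair of split domains and a fused one within 148 kb. The domain of Ttll6 and Hoxb13 (chr11:96160600-96217615, 57.0 kb) was covered over 27.2%, and both ends of Hoxb13 lay in a retained piece. The domain of Hoxb9, Hoxb8 and Hoxb7 (chr11:96245827-96283705, 37.9 kb) had the lowest covered share of the class, 16.0%, with pieces of 1.53 and 4.53 kb, and both ends of Hoxb9 lay in the uncovered right flank. In the fused domain of Hoxb6, Hoxb5 and Hoxb3 (chr11:96294887-96308900, 14.0 kb), an Eed cKO peak spanned a control gap of 1334 bp that holds an end of Hoxb6, and reached 4288 bp further right to Hoxb3, which had no control peak at its ends. Of the 39 Hox genes, 23 lay at a split domain and 5 at a fused one, and both classes occurred in the Hoxa and Hoxb clusters. Besides the Hoxb genes, the fused members were Hoxa5 and Hoxa6 (chr6:52197269-52203951), where the Eed cKO peak spanned a control gap of 1718 bp.

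Other broad split domains lay mostly over single lineage factors. Nkx2-3, a gut and spleen homeobox factor, lay in a 66.6 kb domain (chr19:43564233-43630792) covered over 59.6%, with pieces of 4.48 and 35.2 kb and the gene in the larger one. Pax3, a factor of melanocyte and muscle precursors, lay in a 61.7 kb domain (chr1:78161484-78223172) covered over 31.3%, with a gap of 1236 bp and an uncovered left flank of 37343 bp. Its gap is narrow, and the uncovered sequence is nearly all at its edge. Hand2, a heart and limb bHLH factor, lay in a 56.7 kb domain (chr8:57305363-57362028) with 3 pieces of 2.97, 9.89 and 4.85 kb, the middle one over most of the gene. Pax2, a kidney and eye factor, lay in a 50.6 kb domain (chr19:44716965-44767608) with a gap of 22836 bp, while its start lay in the 23.2 kb piece. Runx3, a Runt-domain factor, lay in a 48.5 kb domain (chr4:135132557-135181080) of which 82.6% was covered, with gaps of 1126 and 1585 bp. Lhx2 lay in a 48.4 kb domain (chr2:38331192-38379593) covered over 76.9% by 4 pieces. Tsc22d3, a glucocorticoid-induced gene, lay in a 55.3 kb domain (chrX:140546208-140601506) covered over 48.6%, and no Eed cKO peak reached its ends. A domain of 63.8 kb over the long noncoding RNA gene Mir9-3hg was covered over 44.2%, with a gap of 240 bp and an uncovered right flank of 35235 bp.

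**Figure D3:**
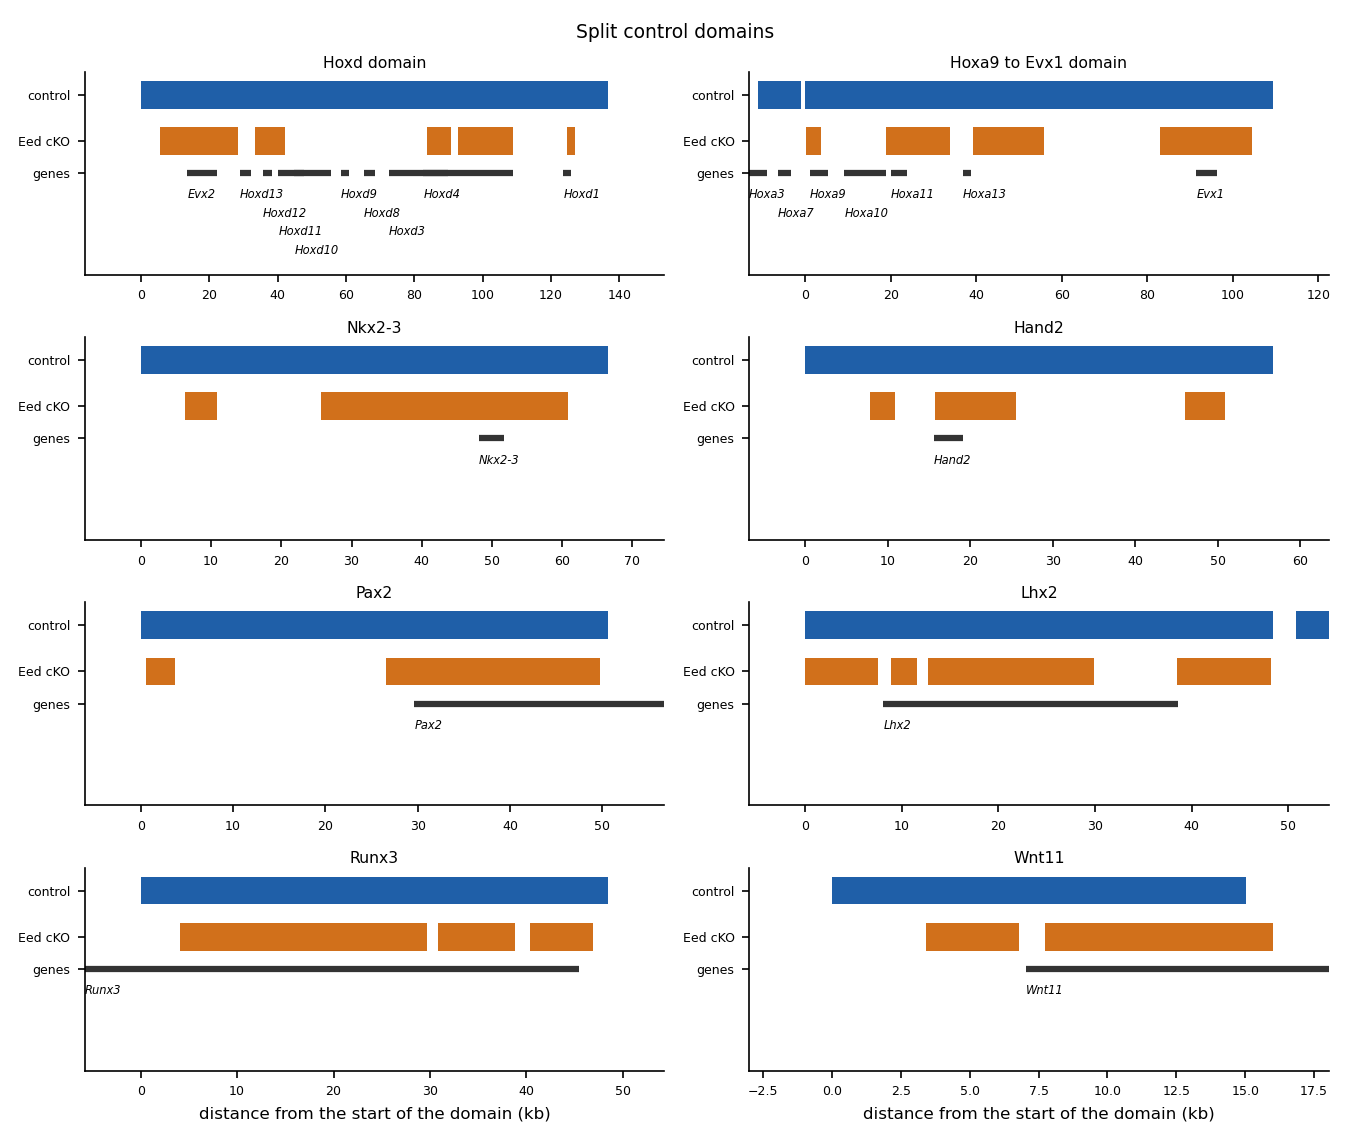
Peaks of control (blue) and Eed cKO (orange) and RefSeq spans of protein-coding genes (grey) are drawn over 8 split domains, against distance in kb from the start of the domain. The Hoxd domain shows 5 Eed cKO pieces around a 41516 bp gap, Pax2 a gap of 22836 bp to the left of the gene, and Runx3 a covered share of 82.6%.

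The other domains with 3 or more pieces were mostly at such genes too. With 4 pieces there were Pax6, the eye factor (46.7 kb, covered over 55.2%, gaps of 1012, 917 and 1349 bp), and Tbx15, a limb and skin mesenchyme factor (38.1 kb, covered over 60.3%, gaps of 623, 217 and 1501 bp). Sox2 lay in a 40.5 kb domain (chr3:34637083-34677631) covered over 41.8%, with pieces of 4.90, 7.27 and 4.77 kb. The gene sat in the middle piece, with a gap of 10957 bp to its right. Tbx3, a T-box factor of limb and mammary gland, lay in a 38.8 kb domain (chr5:119654172-119693009) whose 12796 bp gap holds its left end. Dlx6 and Dlx5, limb and craniofacial factors, lay in a 40.5 kb domain covered over 78.7%. Others were at Zic5 and Zic2, at Foxd2 and Foxe3, at Lhx6, at Sall1 and in a region 82467 bp from Calcoco1. Among the domains of 2 pieces, Shh, the hedgehog ligand of hair follicle growth, lay in a 17.9 kb domain (chr5:28453731-28471614) covered over 87.8%, and both its ends lay in retained pieces on the sides of an 1180 bp gap.

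At the extremes of covered share the genes were of mixed kinds. The lowest split values after Hoxb9 were 18.8% in a 20.1 kb domain 243168 bp from Igfbp3, 20.1% at Shroom1 and Sowaha, 27.2% at Ttll6 and Hoxb13, and 29.4% at Pou3f3, a neural POU factor whose left end lay in an uncovered flank. Among the highest were 97.6% at Myl10, 95.5% in BC052040, 94.3% at Engase and Rbfox3, and 94.2% in Kcnip3. In these 4 domains the gaps ran from 152 to 971 bp, and each was divided by narrow gaps alone.

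The widest fused domains lay at Zfhx3, Cux1 and Neurod2. The foremost lay inside the span of Zfhx3, a zinc finger homeobox factor (chr8:108789912-108855955, 66.0 kb), and spanned control pieces of 40.5, 4.43 and 5.22 kb with gaps of 1067 and 13587 bp. The next lay beside Cux1, a cut-homeobox factor (chr5:136567874-136628732, 60.9 kb), and spanned a gap of 1363 bp with 97.0% already under control peaks. Neurod2, a neuronal bHLH factor, and Ppp1r1b shared a 34.0 kb domain (chr11:98319134-98353147) over 3 control pieces with gaps of 803 and 1171 bp. The domain of Stac3, Ndufa4l2, Shmt2 and Lrp1 was 32.2 kb wide, that of Gp1bb and Septin5 32.1 kb, and that of Kcnc4, a potassium channel gene, 30.5 kb. Slco2a1, which encodes a prostaglandin transporter, had a 29.0 kb domain (chr9:103065113-103094149) with the widest filled gap, 17698 bp, and 37.0% under control peaks. Krt18, a simple-epithelium and Merkel cell keratin, lay in a 25.5 kb domain (chr15:102021402-102046908) with a gap of 1167 bp and 95.4% under control peaks. Klhl22 and Scarf2 shared a domain of 24.7 kb, and both a further Zfhx3 domain and an Unc5b domain had that width too. The fused domain at the Unc5b start was 11.1 kb wide (chr10:60825227-60836346).

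**Figure D4:**
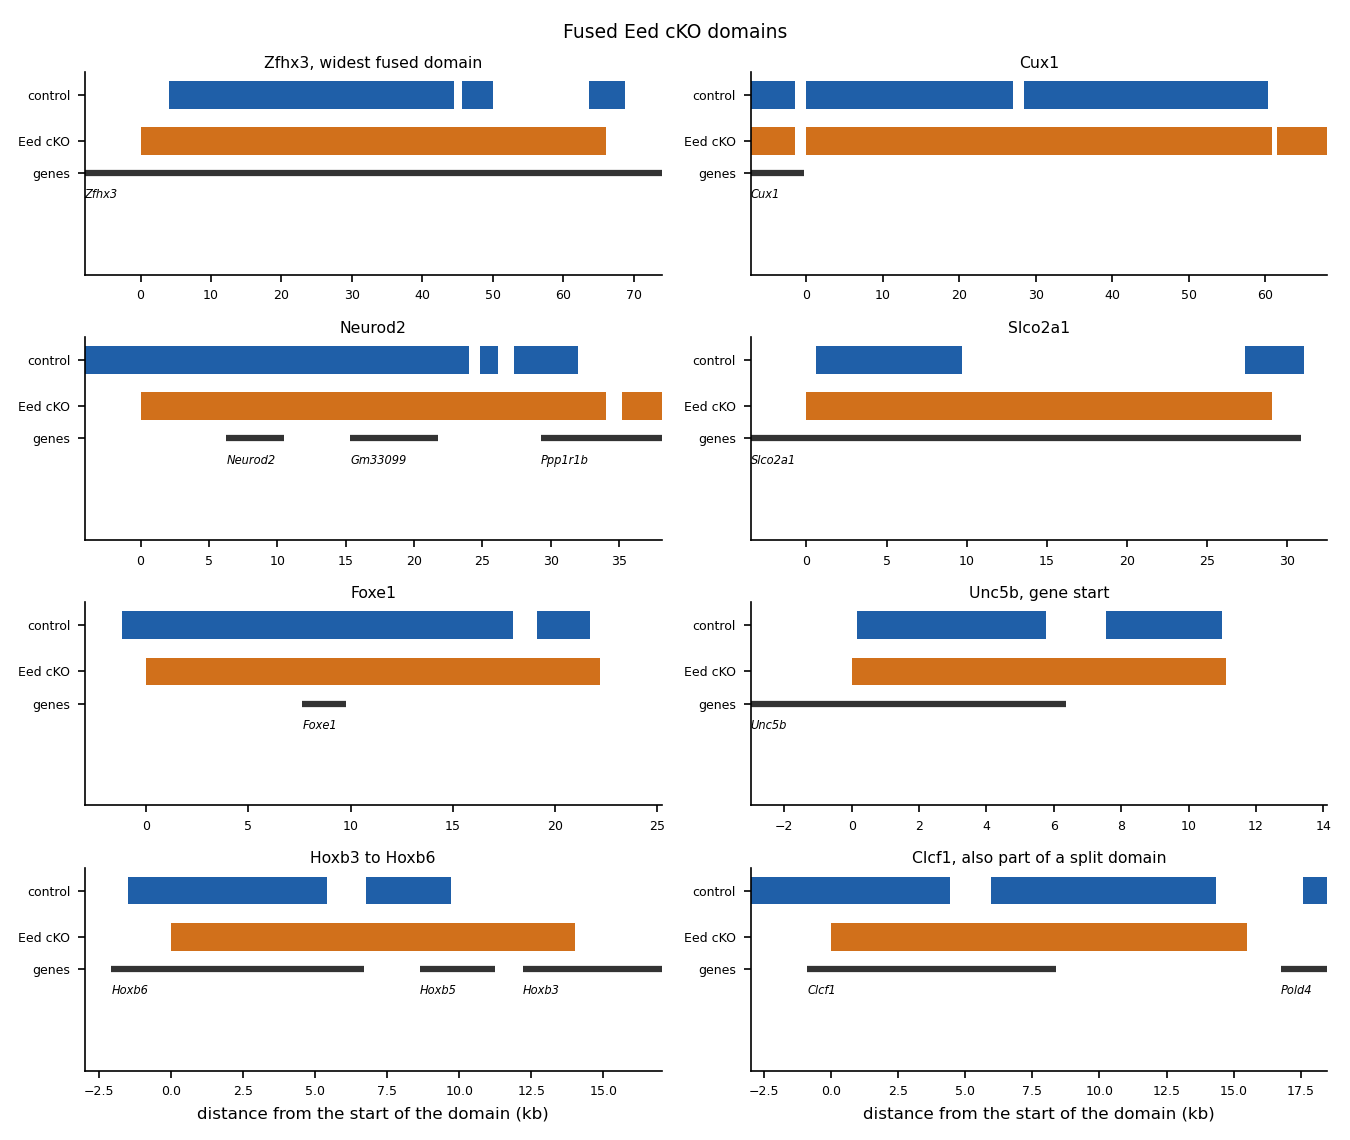
Peaks of control (blue) and Eed cKO (orange) and RefSeq spans of protein-coding genes (grey) are drawn over 8 fused domains, against distance in kb from the start of the domain. Slco2a1 shows the widest control gap under an Eed cKO peak, 17698 bp, while Cux1 and Foxe1 differ from control by gaps of 1363 and 1178 bp.

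The lowest covered shares among fused domains were 26.0% in Macrod1, 29.9% at Begain, 34.5% in Fam222a, 37.0% at Slco2a1 and 38.7% near Mllt3. The highest after Cux1 were 95.4% at Krt18 and at Hs3st3b1, 94.0% at Ccno and Mcidas, which act in multiciliated cells, and 93.7% at Sp6, a zinc finger factor of tooth and skin appendages. Foxe1, a forkhead factor of thyroid and hair follicle, lay in a 22.2 kb fused domain (chr4:46335999-46358203) covered over 92.4%. Vim, the mesenchymal intermediate filament gene, lay in one of 6.26 kb (chr2:13571055-13577319) with a filled gap of 1179 bp.

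Gene ends were frequent in both classes. A domain was placed at a gene when it came within 2000 bp of either end of a RefSeq protein-coding span. This held for 82 of 105 split domains (78.1%, interval 69.3 to 84.9%) and 62 of 95 fused domains (65.3%, interval 55.3 to 74.1%). The share was 49.0% over all control peaks and 53.3% over all Eed cKO peaks, and 58.2% and 59.5% over those with exactly 1 partner. A further 7 split and 18 fused domains lay inside a gene span away from its ends. The remaining 16 and 15 lay outside genes. Up to 40 kb, width went with this share. Control peaks with exactly 1 partner were at a gene end in 317 of 718 under 5000 bp (44.2%). At 20 to 40 kb the counts were 79 of 98 (80.6%), beside 36 of 44 split domains (81.8%). At 40 kb and over they were 5 of 8 and 18 of 19. Fused domains of 5 to 10 kb were at a gene end in 19 of 32 (59.4%), beside 442 of 667 single-partner Eed cKO peaks (66.3%). At 10 to 20 kb the counts were 31 of 44 and 196 of 273, and at 20 to 40 kb 10 of 14 and 35 of 42.

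In all, 130 genes lay at split domains, which is 0.594% of 21887 protein-coding genes and 5.10% of the 2550 marked in control (11.7% of all genes). At fused domains there were 101 genes, 0.461% of all and 6.23% of the 1620 marked in Eed cKO (7.40% of all genes). A gene is called marked when a peak comes that close to its ends. Both classes shared 8 genes, namely 6430628N08Rik, Clcf1, Cux1, Fbxl8, Foxo6, Sfrp2, Shroom1 and Tradd. Of the 130 genes at split domains, 91.5% also had an Eed cKO peak at their ends. The 11 without one were Hoxb7, Hoxb8, Hoxb9, Hoxd8, Hoxd9, Hoxd10, Ttll6, Elp4, Pcca, Prkag1 and Tsc22d3. Of the 101 genes at fused domains, 99 also had a control peak, the exceptions being Hoxb3 and Tedc1. Since each member touches the other list by rule, these shares are descriptions.

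Developmental transcription factors made up much of the split class, while their share of fused domains was near that over all Eed cKO peaks. From 4 lists joined (282 of 21887 protein-coding genes), 63 of 130 genes at split domains (48.5%) and 9 of 101 at fused domains (8.91%) were such factors. Counted by domain, 38 of 105 split domains held 1 or more (36.2%, interval 27.6 to 45.7%) and 6 of 95 fused domains did (6.32%, interval 2.93 to 13.1%), beside 7.17% and 10.1% of control and Eed cKO peaks with exactly 1 partner. Over all control peaks the share was 4.83%. Over all Eed cKO peaks it was 7.32%, which lies inside the fused interval. The 4 lists and their members at split and at fused domains were Hox genes with 23 and 5 of 39, other homeobox genes with 16 and 1 of 112, Pax, Sox, Fox, T-box, Gata and Zic factors with 21 and 1 of 83, and bHLH factors with 3 and 2 of 48. Of their genes marked in control, 71.9%, 15.1%, 32.3% and 8.82% lay at split domains, in the same order, beside 5.10% over all marked genes. Of those marked in Eed cKO, 19.2%, 1.18%, 2.22% and 8.70% lay at fused domains, beside 6.23%. The fused members outside the Hox clusters were Nkx6-2, Foxe1, Neurod2 and Hes3.

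Width moved with this count. Among control peaks of 20 to 40 kb, 20 of 44 split (45.5%) and 51 of 98 single-partner peaks (52.0%) held such a gene, and the split share was the lower of the pair. At 40 kb and over the counts were 16 of 19 and 3 of 8. Among Eed cKO peaks of 10 to 20 kb, 3 of 44 fused (6.82%) and 59 of 273 single-partner peaks (21.6%) held one, and at 20 to 40 kb 2 of 14 and 18 of 42 did. The fused class thus held fewer such genes than equally wide Eed cKO peaks with 1 partner, with no test made.

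Other lists had 0 to 3 members in a class, to be read beside the 0.594% of all genes at split and 0.461% at fused domains. Of 69 WNT, FGF, BMP, GDF and hedgehog ligands, Wnt1, Wnt11 and Shh lay at split domains (4.35%, or 8.82% of those marked in control) and 0 at fused ones. Of 30 hair follicle and appendage genes, Shh, Lhx2 and Hoxc13 lay at split domains (10.0%, or 15.8% of those marked in control). Lists overlap, and Shh is counted above among the ligands, Lhx2 among the homeobox genes and Hoxc13 among the Hox genes. Sox2, Pax3 and Hes1, named below, are likewise counted in the transcription factor lists. Among 94 genes of ion channels and neurotransmitter receptors, control peaks marked 50 and 0 lay at a split domain, while Kcnc4, Kcng1 and Grm4 lay at fused domains (3.19%, or 9.38% of those marked in Eed cKO). These shares lie above those over all genes, on 3 genes each and with no test made. The channel and receptor list is not complete. Genes of that kind outside it lay at split domains, among them Asic1, Hrh3, Cacng8 and Cacng6, and Kcnn4 lay at a fused one. Of 50 axon guidance genes, Efna3 was split and Unc5b fused. Of 20 Merkel cell genes, Sox2 was split and Krt18 fused, and of 14 melanocyte genes Pax3 was split. Of 24 dermal fibroblast and mesenchymal genes Vim was fused, a cell type that the EpCAM gate is meant to leave out. Of the shorter sets of defining markers, 0 of 6 for melanocytes, 0 of 5 for fibroblasts and 0 of 5 for leukocytes and endothelium lay in either class. Hes1, a Notch target of suprabasal cells, lay in a split domain of 10.4 kb whose pieces covered 86.7% and held both its ends. The basal keratinocyte, cell cycle inhibitor, Polycomb, leukocyte and endothelial, matrix and housekeeping lists had 0 members in either class. Of their genes 3, 7, 9, 4, 9 and 0 were marked in control, and 2, 2, 7, 1, 6 and 3 in Eed cKO. Beside the 5.10% and 6.23% over all marked genes, these numbers are too small for a 0 to be read as a trait.

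**Figure D5:**
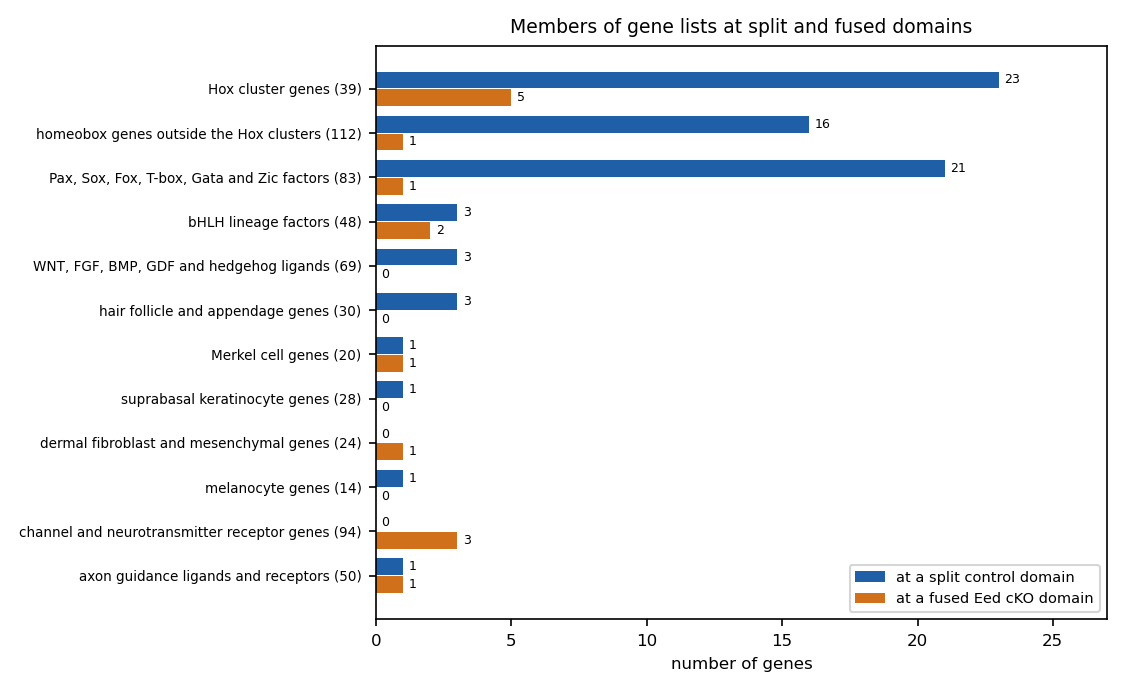
Bars count the genes of each list at split control domains (blue) and at fused Eed cKO domains (orange), with the number of list genes found in the annotation in brackets, for lists with 1 or more member in either class. The Hox, homeobox and Pax to Zic lists hold 23, 16 and 21 genes at split domains and 5, 1 and 1 at fused ones.

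Gene ends inside split domains were placed by base. Of 184 ends of 118 genes, 64.7% lay in retained pieces, 44 (23.9%, interval 18.3 to 30.6%) in gaps and 21 (11.4%, interval 7.59 to 16.8%) in flanks, beside 58.2%, 16.0% and 25.8% of the sequence. Flanks thus held a smaller share of ends than of sequence. The ends in gaps lay in 25 of the 105 split domains. Intervals for ends take each end as independent, although ends of the same gene or domain are linked, so they are too narrow. With Hox and Evx genes left out, which was chosen after the values were seen, gaps held 24 of 138 ends (17.4%). Examples in gaps were both ends of Foxb1, a forkhead factor (9935 bp gap), and the left ends of Tbx3 and Hand2. Of 117 ends in fused domains, 81 (69.2%) lay under control peaks, 15 (12.8%, interval 7.93 to 20.1%) in filled gaps and 21 (17.9%) in flanks, beside 75.1%, 13.6% and 11.3% of the sequence. Among narrow gaps, a gene end lay in 12 of 73 split gaps under 1500 bp (16.4%) and in 7 of 69 fused gaps (10.1%). Equally narrow spaces that no peak of the other list bridges held one in 11 of 68 Eed cKO pairs (16.2%) and 30 of 231 control pairs (13.0%). These shares lie within each other's intervals.

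Some places were split and fused at the same time, where peaks of both lists interlock. Linked by overlap, the 200 members formed 182 groups, of which 88 held 1 control and several Eed cKO peaks, 78 held 1 Eed cKO and several control peaks, and 16 held 2 or more of each. Those 16 contained 17 split and 17 fused domains, at or near Calcoco1, Engase and Rbfox3, Myl10, Igfbp3, Foxo6, Zfhx3, Clcf1, Sh2b2, Prdm16, Kncn, Shroom1, B4galt5, Tradd, Sfrp2, Fam222a and Nptx2. Split domains in such groups had a median width of 11754 bp and those outside them of 26682 bp. Fused domains had 9979 and 12396 bp. Sfrp2, a secreted Wnt modulator, had a control gap filled on its left and a control peak of 5.02 kb broken by 2450 bp on its right. The Zfhx3 span carried 2 split and 3 fused domains over 167 kb, and the stretch from Cux1 to Myl10 carried 3 split and 2 fused domains over 222 kb.

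Membership rested on small overlaps in a few cases. The least second overlap among split domains was 44 bp at Zfhx3, then 45 bp near Igfbp3 and 74 bp near Zfp703. Among fused domains it was 44 bp at Zfhx3, 45 bp near Igfbp3 and 97 bp at Sfrp2. Just outside the rule, 23 control peaks with 1 partner had another Eed cKO peak within 1000 bp, the nearest at 177 bp by Egr3. On the other side 32 Eed cKO peaks did, with the nearest at 177 bp by Egr3 as well.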

How the data were processed

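ChIP-seq of H2AK119ub in sorted newborn epidermal progenitors was read from 2 deposited peak lists (control, Eed cKO). Both hold chromosome, start and end of every peak and no score, height or p-value, as the deposited files show. Per the submitters' processing notes the build is mm10 and the tools include SAMtools 1.9 and Bowtie2 2.3.3.1. How peaks were called, at what threshold and from which combination of libraries is not given in the sources used here. Starts were taken as counted from 0 and are printed from 1. Members were found by an overlap of at least 1 bp with 2 or more peaks of the other list. A gap is the stretch between neighbouring partner peaks of a domain, and a flank is the stretch outside the outermost ones. Genes were RefSeq spans of GRCm38.p6 (21887 protein-coding), which carry no strand, so windows of 2000 bp on either side of both ends were used. Shares have 95% Wilson intervals. No test between conditions was made, as each genotype has 1 list. Members and gene lists were chosen with earlier results of these data known. Genes were named by rule (the 12 widest domains of a class, the 5 with most pieces, the 5 lowest and 5 highest in covered share, domains in both classes, and list members), with 1 domain not reported here; a few others are examples chosen after their values were seen. Of 759 listed genes, 756 were found in the annotation. The code (Python 3.11.15, pandas 2.3.3) was tested on simulated lists, where 100 of 100 planted splits and 60 of 60 planted fusions were recovered. The planted gaps were all of 1000 bp, in peaks kept apart from their neighbours. Small overlaps and interlocking groups were not simulated, so the recovery checks the code alone.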

Additional observations from a re-analysis of the deposited data

How the results depend on the processing

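The counts and medians depended most on joining neighbouring peaks and on leaving out narrow ones. Of 93 alternative values, 72 stayed close to the reported one and 21 moved. Close means inside the reported 95% interval for medians and shares, while counts were allowed a set fold change. Values called close could still differ, as when partner peaks had to lie at least 50% inside the domain. There were then 82 split and 67 fused domains, beside 105 and 95, and 45.1% of the split ones held a developmental factor gene. With peaks of a list within 3000 bp merged first, 49 split and 33 fused domains remained, with median widths of 35502 and 25926 bp, median covered shares of 49.9% and 59.9%, and median gaps of 6071.5 and 4474 bp; 49.0% of the split ones held a developmental factor gene. With 1000 bp merged, the median gaps were 2385 bp (split) and 1348.5 bp (fused) and the median fused width was 14014 bp. With peaks below the median width of their list left out, there were 50 split and 48 fused domains, with median widths of 30863 and 15127.5 bp and a fused covered share of 85.5%. With the control list trimmed to the length of the Eed cKO list by keeping its widest peaks, 49 domains were fused, with a median width of 15487 bp and a covered share of 84.8%. The split count was then 103. This setting leaves out narrow control peaks, so it does not set list length apart from width. With Hox and Evx genes left out, 17.4% of gene ends in split domains lay in gaps. Split domains stayed wider than fused ones in median under each of these settings. Overlap minimum, autosomes alone and the gene end window moved no value. No paired analysis was possible because each genotype has 1 deposited list and the results come from no test, and for the same reason no library could be left out. Peak positions hold no depth, so what depth limits could not be measured.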
